A study of Mus musculus with 3 samples.

Results

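The genes described here had a much higher signal in macrophages given CpG alone than in macrophages given IFN-γ with a block of the IL-10 receptor, whether or not CpG was also present. They were chosen by their measured values. A gene was selected if its log2 value in the authors' table was at least 2 (4-fold) higher with CpG than in each of the other conditions, and if its probe was well above background on the CpG array. Each gene was read by 1 RefSeq mRNA probe, the brightest on average. Of 19988 such genes, 12114 were well above background with CpG, and 162 of these met the rule, which is 1.34%. Because these differences chose the genes, they are given as a description.

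Bone marrow-derived macrophages (BMDMs) were grown in M-CSF from C57BL/6J mice. They were stimulated for 20 h with CpG, with IFN-γ + αIL-10R (IL-10RB in the labels), or with all of these agents (Triple). Single-colour Agilent arrays were used, with 1 array per condition, so that no difference below has a replicate check and no test was possible. None of the conditions was unstimulated, so that it cannot be said whether CpG induced these genes or IFN-γ lowered them. Both arrays with IFN-γ also had αIL-10R, and the effects of these agents cannot be told apart. All 9 macrophage markers on a list, among them Csf1r and Cd68, were well above background on all 3 arrays.

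CpG DNA is a ligand of TLR9, an endosomal receptor that signals through MyD88 to NF-κB and AP-1. IFN-γ signals through JAK kinases, and it raises antigen presentation and antimicrobial genes while it lowers many genes of resting macrophages. IL-10, which macrophages secrete after TLR stimulation, acts back on them through its receptor and STAT3, and αIL-10R blocks this loop.

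The members fell into a small bright class and a large dim class. In the first, 34 genes were well above background also in at least 1 array with IFN-γ, and 24 of them on all 3 arrays. The other 128 were well above background with CpG only. The median processed signal with CpG was 1979.9 in the first class and 61.1 in the second, against 1442 over all genes well above background with CpG. A description of the genes as absent with IFN-γ therefore holds, at the detection limit of these arrays, for the chosen probes of 128 genes and not for those of the 34, and for 3 of the 128 a further probe was well above background with IFN-γ. The 10 brightest members all belonged to the first class. Of the 25 members with the largest differences in the authors' table, which compares dim signals as they are, 22 belonged to the second. With dim signals raised to the detection limit, 13 of the 25 largest did.

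**Figure D1:**
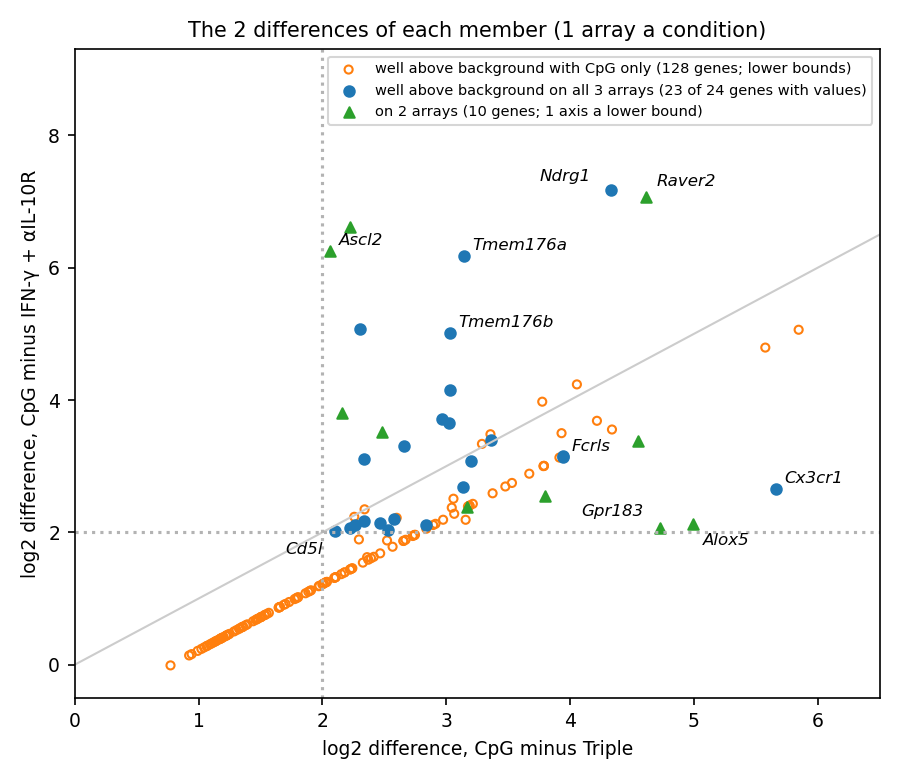
Log2 differences of each member, CpG minus Triple (x axis) and CpG minus IFN-γ + αIL-10R (y axis), from scaled scanner signals with dim signals raised to the detection limit. Blue points are genes well above background on all 3 arrays, and green triangles those on 2 arrays. Open orange circles are the 128 genes well above background with CpG only, whose values are lower bounds against that limit. Dotted lines mark 4-fold and the grey line marks equal differences. Ndrg1 and Raver2 lie above the line at the top, Cx3cr1, Alox5 and Gpr183 lie far below it, and most orange circles lie along a line set by the detection limits of the other arrays.

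Membrane and transport proteins were among the brightest members. Tmem176b and Tmem176a encode related membrane proteins of myeloid cells and are neighbours on chromosome 6. Tmem176b had a processed signal of 98609.7 with CpG, 11581 in Triple and 3021 with IFN-γ + αIL-10R. Tmem176a had 11911 with CpG, 1293 in Triple and 163 with IFN-γ + αIL-10R. Both genes thus kept the same order of the arrays, with Triple in between. After scaling, CpG was 32.2-fold over IFN-γ + αIL-10R and 8.18-fold over Triple for Tmem176b, and 72.0-fold and 8.85-fold for Tmem176a. Slco4a1, an organic anion transporter, had 18342 with CpG, 1913 in Triple and 2129.8 with IFN-γ + αIL-10R, so that the arrays with IFN-γ lay close together. In bulk RNA, fewer cells that express a gene and less RNA per cell cannot be told apart.

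The starts of Tmem176b and Tmem176a listed by RefSeq (GRCm38.p6) face away from each other, and the nearest of them are 109 bases apart. The stretch between them lies before every listed start of both genes. It is shown because the pair had the same order of signals, with capitals for its only match to 4 short motifs searched on both strands, GGNNNTTCC (NF-κB), which lies 86 to 78 bases before the first listed start of Tmem176a and 31 to 23 bases before the nearest start of Tmem176b:

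Tmem176b and Tmem176a, chr6:48841375-48841482, + strand: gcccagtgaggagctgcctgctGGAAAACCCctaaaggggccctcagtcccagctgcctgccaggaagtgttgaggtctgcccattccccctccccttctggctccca

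Ndrg1, a cytoplasmic protein that rises in hypoxia and other stress, had the largest measured fold over IFN-γ + αIL-10R. Its signal was 90540.1 with CpG, 4333 in Triple and 615 with IFN-γ + αIL-10R. CpG was therefore 145-fold over IFN-γ + αIL-10R and 20.1-fold over Triple. Raver2, an RNA-binding protein, had 138 in Triple and 3521 with CpG, and at 6.40 it was not well above background with IFN-γ + αIL-10R. At this probe CpG was at least 134-fold over IFN-γ + αIL-10R and 24.5-fold over Triple. A further probe of Raver2 did not show the difference, with 263 with CpG, 239 in Triple and 278 with IFN-γ + αIL-10R. A fold given as at least a value is a lower bound set by the detection limit. A signal that was not well above background, and lay under the lowest that was on its array, was raised to that lowest signal. Other such signals were kept as measured. Some spots over that lowest signal were still not well above background, such as Itih1 at 36.3 in Triple, where the lowest was 14.6. The bounds are therefore not strict limits on what could go undetected. These bounds depend on the background correction. With normexp (offset 50), the log2 difference of Raver2 over IFN-γ + αIL-10R was 5.71 in place of 7.07, and 78 of 110 differences between CpG and another array that were followed for the named members were lower by over 1.5-fold.

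Receptors and secreted scavenger proteins of macrophages made up another part of the bright class. Cd5l, a secreted scavenger protein, had 76373 with CpG, 17079.6 in Triple and 18603 with IFN-γ + αIL-10R, and it stayed bright in every condition. Fcrls, an Fc receptor-like protein known from microglia, had 40591 with CpG, 2530.0 in Triple and 4533 with IFN-γ + αIL-10R. Cx3cr1, the receptor for fractalkine, had 7523 with CpG, 143 in Triple and 1181 with IFN-γ + αIL-10R. Its order differed from that of the Tmem176 genes, with Triple lowest, and CpG was 50.7-fold over Triple and 6.27-fold over IFN-γ + αIL-10R. Clec4b1, a C-type lectin receptor, had 4134 with CpG, 829 in Triple and 947 with IFN-γ + αIL-10R.

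Receptors of small ligands, lipids and a cytokine were dimmer: S1pr1 (sphingosine 1-phosphate), Htr2b (serotonin), Gpr183 (oxysterols) and Il2ra (IL-2). S1pr1 had 727 with CpG, 79.3 in Triple and 111 with IFN-γ + αIL-10R. Htr2b had 669.9 with CpG, 102 in Triple and 67.0 with IFN-γ + αIL-10R. Gpr183 had 94.9 with IFN-γ + αIL-10R and 403 with CpG, and at 7.04 it was not well above background in Triple. Il2ra had 431 with CpG and 92.7 in Triple, and at 30.3 it was not well above background with IFN-γ + αIL-10R. The lowest array was thus a different one for Gpr183 and Il2ra. Itgb3, the β3 integrin chain, had 51.1 with IFN-γ + αIL-10R and 303 with CpG at its chosen probe, which at 21.0 was not well above background in Triple, although a further probe was.

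Enzymes of lipid, sulfate and matrix biology were also members. Alox5, which starts leukotriene synthesis, had 109.7 with IFN-γ + αIL-10R and 484 with CpG, and at 5.73 it was not well above background in Triple. Mmp12, the macrophage elastase, had 1994 with CpG, 246 in Triple and 149 with IFN-γ + αIL-10R. At the chosen probes Alox5 was thus below detection in Triple, and Mmp12 was not. A further, dimmer probe of Mmp12 had 54.6 with CpG and was not well above background on the other arrays. Chst7 and Chst11, sulfotransferases that act on chondroitin, had 4030.0 and 299.8 with CpG, 473 and 57.0 in Triple, and 225 and 65.5 with IFN-γ + αIL-10R. Cbr2, a carbonyl reductase, had 1979.9 with CpG, 124 in Triple and 219.8 with IFN-γ + αIL-10R. Ppic, a peptidyl-prolyl isomerase (cyclophilin C), had 2211 with CpG, 431 in Triple and 64.6 with IFN-γ + αIL-10R.

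Ascl2, a basic helix-loop-helix transcription factor, had 1991 with CpG and 457 in Triple, and at 6.66 it was not well above background with IFN-γ + αIL-10R. The clone-named gene 1190003J15Rik (now Urah, an enzyme of uric acid breakdown) had the same pattern, with 2554 with CpG, 525 in Triple, and 18.6 with IFN-γ + αIL-10R. Rhoj, a small GTPase, had 33.7 with IFN-γ + αIL-10R and 356 with CpG, and at 6.06 it was not well above background in Triple. Sgca, a subunit of the muscle sarcoglycan complex, had 299.9 with CpG and 51.5 in Triple, and at 16.03 it was not well above background with IFN-γ + αIL-10R. Further bright members, Slc35g1, Sel1l3, Oit3, Slc5a3, Ak8, Cd79b and the clone-named 0610040J01Rik and 1700026L06Rik, had CpG signals between 137 (Ak8) and 3558 (Slc35g1). Slc35g1, a member of a solute carrier family, had 678 in Triple and 405 with IFN-γ + αIL-10R. Slc5a3, which carries myo-inositol into cells, had 143 with CpG, 29.3 in Triple and 33.6 with IFN-γ + αIL-10R, close to the detection limit of the last.

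Cd79b is the signaling chain of the B cell receptor and was the only member among the markers of other cell types. Its signal was 801 with CpG, 108 in Triple and 182 with IFN-γ + αIL-10R. Of the 6 B cell markers on the list, 2 were well above background on each array, namely Cd79b and Blnk, while Cd79a, Ms4a1 and Pax5 were not on any. The summed signal of all 6 was 59574 with CpG, 43471 in Triple and 18933 with IFN-γ + αIL-10R. Nearly all of this sum came from Blnk, and its order of the arrays was not that of Cd79b. The sum is thus mostly the signal of a single gene. The part of B cells in the value of Cd79b was not tested.

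Itpkb, a kinase of inositol trisphosphate, met the rule through a spot that the scanner software marked as an outlier. It is counted among the 34, although this value is in doubt. The mean of its pixels on the CpG array was 13.8 times their median. With this spot left out, Itpkb had no value with CpG, and its signals of 599.5 in Triple and 586 with IFN-γ + αIL-10R were close. Another probe of Itpkb had 114 with CpG, 153 in Triple and 135 with IFN-γ + αIL-10R, and so was lowest with CpG.

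**Figure D2:**
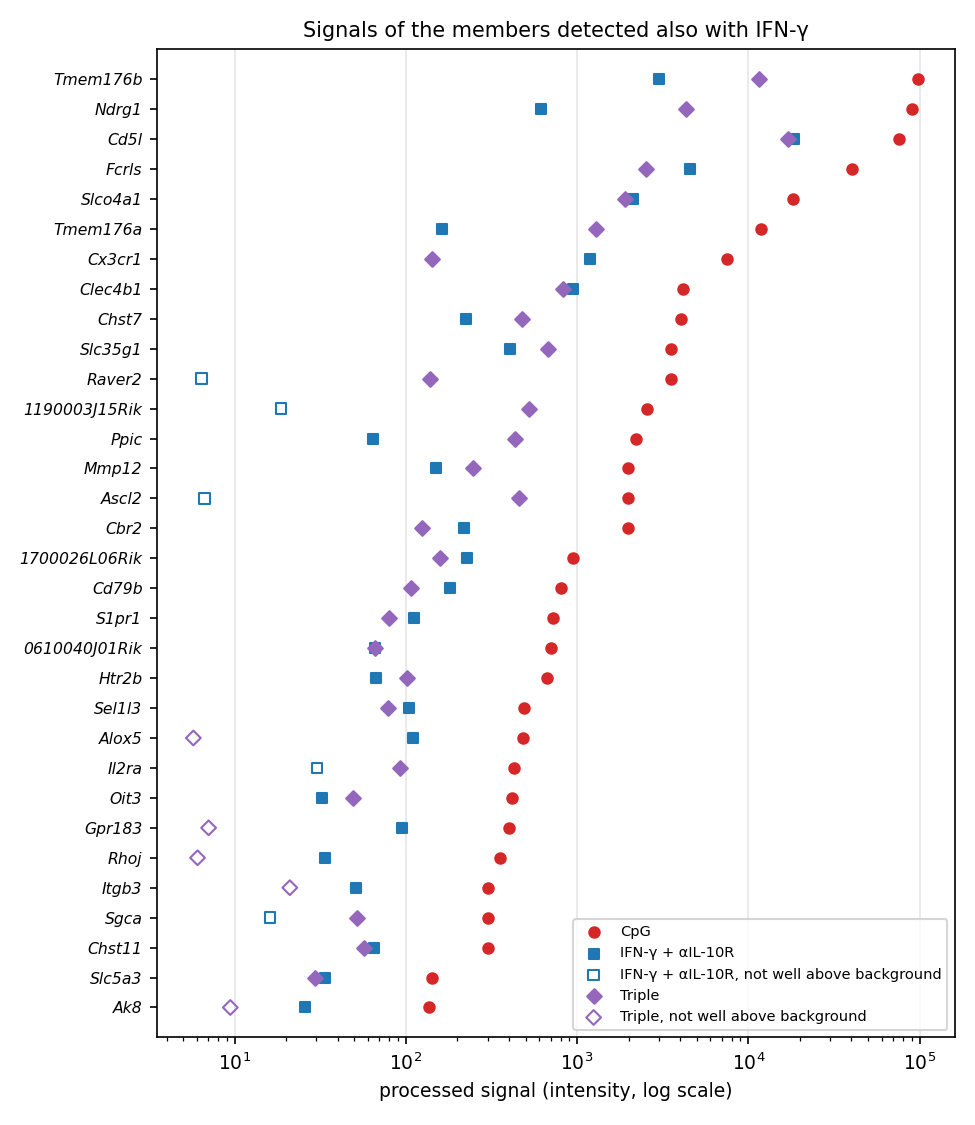
Processed signal (x axis, log scale) of 32 members well above background also with IFN-γ, 1 line per gene, ordered by the CpG signal. Red circles are CpG, blue squares IFN-γ + αIL-10R, and purple diamonds Triple; open symbols were not well above background. Triple lies between the others for Tmem176b, Ndrg1 and Tmem176a, and lies lowest for Cx3cr1, Alox5, Gpr183 and Rhoj. Itpkb is left out because its CpG spot had an outlier mark.

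Other probes for the same genes were not held to the thresholds, although RefSeq mRNA probes among them were ranked to find the brightest. They read the same RNA on the same arrays. Of the 34 bright members, 12 had a further probe that was well above background with CpG, 13 probes in all. Of these probes, 10 (76.9%), in 9 genes, were more than 2-fold higher with CpG than in both other arrays. Over all genes, 1.99% of such further probes were. Both shares require detection with CpG, where the members are high, so that the comparison is a description and tests nothing. For Mmp12, Sgca and Slc5a3 the passing probe was not well above background on either other array. For Cx3cr1, both further probes showed Triple lowest, with 6279.5 with CpG, 111 in Triple and 940.0 with IFN-γ + αIL-10R for the brighter. The second probe of Tmem176b had 9858 with CpG, 1040.3 in Triple and 265 with IFN-γ + αIL-10R, which is the order of the first. The probes that did not show the difference belonged to Itpkb, Itgb3 and Raver2. That of Itgb3 had 35.3 with CpG and 38.8 in Triple, both dim, and at 5.56 it was not well above background with IFN-γ + αIL-10R, so that the order of Triple and IFN-γ + αIL-10R was the opposite of that at the first probe. That of Raver2 had 263 with CpG, 239 in Triple and 278 with IFN-γ + αIL-10R, so that the difference at the first probe was not seen with the second.

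Triple and IFN-γ + αIL-10R differ only by the addition of CpG, and the bright members split in this comparison. Both arrays entered the rule, so that the counts describe the members and test nothing. Triple was more than 2-fold higher for 10 of the 34 (29.4%), against 7.1% of all genes, and more than 2-fold lower for 5 (14.7%), against 12.5%. The other 19 were not past 2-fold. For Ak8 among them the value is a bound, at least 1.72-fold lower in Triple, so that it may lie past 2-fold. The median log2 difference, Triple minus IFN-γ + αIL-10R, was -0.10 over the 34 genes.

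The members higher in Triple were Ndrg1 (7.22-fold), Tmem176a (8.14-fold), Tmem176b (3.93-fold), Ppic (6.84-fold) and Chst7 (2.16-fold), which were measured on both arrays, and 5 more with lower bounds. These were 1190003J15Rik (at least 20.8-fold), Ascl2 (at least 18.2-fold), Raver2 (at least 5.48-fold), Il2ra (at least 3.14-fold) and Sgca (at least 2.05-fold). The further probe of Raver2 did not show this difference. All 10 had a lower signal in Triple than with CpG alone by the rule. The members lower in Triple were Cx3cr1 (8.08-fold), Alox5 (at least 7.31-fold), Gpr183 (at least 6.33-fold), Rhoj (at least 2.25-fold) and Itgb3 (at least 2.38-fold, with the opposite order at its further probe). Cd5l, Slco4a1, Clec4b1 and Chst11 were among the 19 not past 2-fold, with log2 differences of -0.09, -0.12, -0.16 and -0.16. For scale, replicate spots of the same probe gave an SD of 0.12 for such a difference within these arrays, which covers spot noise and no difference between cultures.

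**Figure D3:**
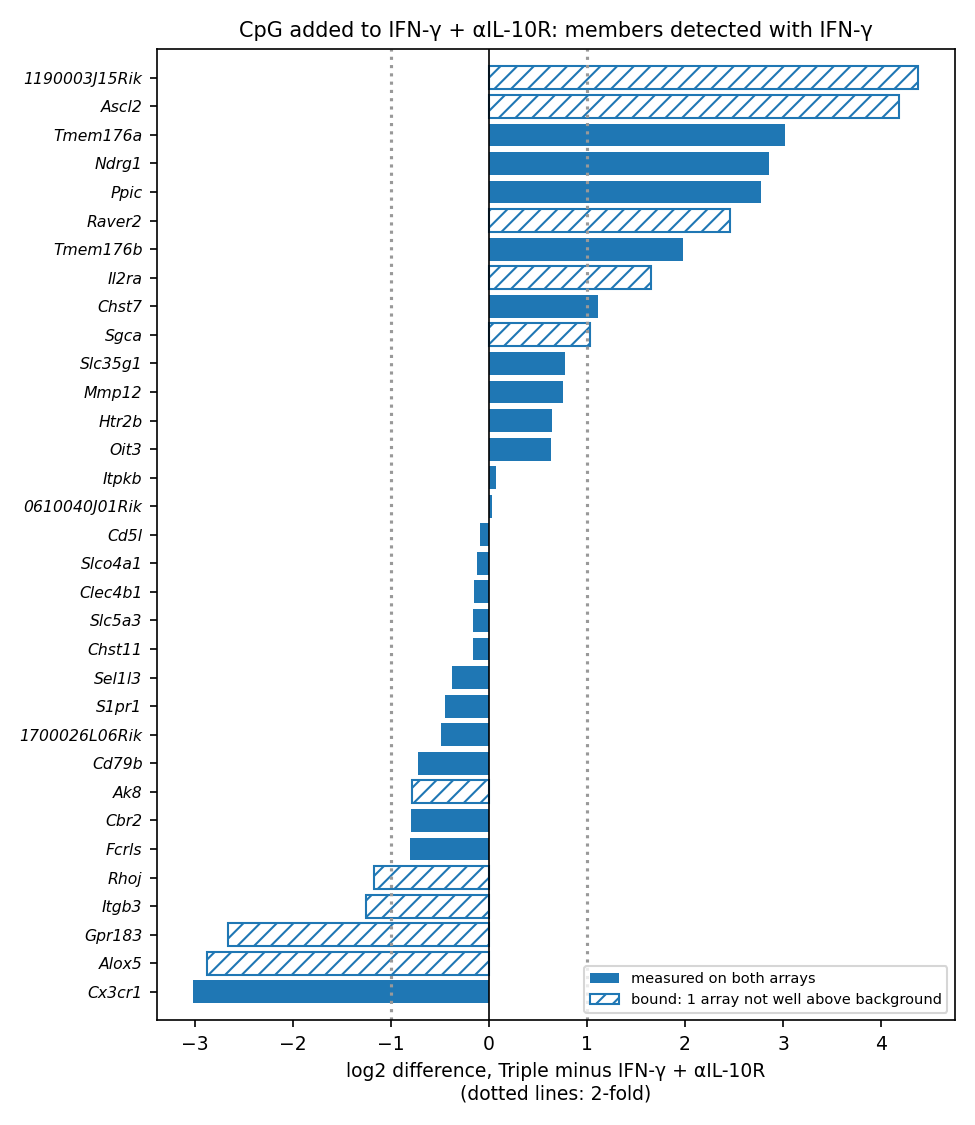
Log2 difference, Triple minus IFN-γ + αIL-10R (x axis), of 33 members well above background also with IFN-γ; dotted lines mark 2-fold. Solid bars were measured on both arrays, and hatched bars are bounds because the gene was not well above background on 1 array. The bars run from -3.01 for Cx3cr1 to at least 4.38 for 1190003J15Rik.

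The 128 genes well above background with CpG only were dim. All of them were read by a single spot, as were 33 of the 34 bright members and 11887 of the 12114 genes well above background with CpG. Their CpG signal ran from 26.02 to 875, and 92 lay under 100, 29 between 100 and 300, and 7 at 300 or more. The lowest signals well above background on the other arrays were 14.6 in Triple and 25.8 with IFN-γ + αIL-10R. Some brighter spots there were not well above background. Measured against the lowest signals, or the gene's own signal where higher, CpG was more than 2-fold higher than on both arrays for 74 genes. For 32 it was at least 4-fold higher. For the rest these arrays show only that the spot was detected with CpG and not in the other conditions.

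The brightest of this class was Olfr1286, an odorant receptor, with 875 with CpG, 5.61 in Triple and 5.60 with IFN-γ + αIL-10R (CpG at least 57.5-fold and 33.4-fold higher). Gdpd2, a glycerophosphodiester phosphodiesterase, had 726, 6.40 and 6.30 in the same order. Mos, a kinase of the maturing oocyte, had 308 with CpG, 7.85 in Triple and 5.82 with IFN-γ + αIL-10R. These signals were high only on the CpG array. Others among the 25 largest differences in the authors' table serve neurons and their synapses (Dnm3, Sorcs3, Pcdh19, Rims2, Sema5b and the receptor subunit Grik5), enamel (Amtn), and islet beta cells (Slc30a8). Their CpG signals ran from 102 for Sema5b to 494 for Grik5. Against the detection limits the differences were smaller, and for Sema5b CpG was at least 3.90-fold over IFN-γ + αIL-10R and 6.72-fold over Triple. Also among the 25 were Chst13, Chst4, Cd209f, Camkk1, Phactr3, Cdkl1, Chrdl1, Tfap2a, Olfr488 and Tctex1d1, with CpG signals from 95.8 (Tctex1d1) to 337 (Camkk1).

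Some gene families recurred, and they were picked after the members had been seen, so that their shares cannot be read against the 1.34% over all genes as a result. Odorant and vomeronasal receptors supplied 11 members, all in the dim class, from 89 such genes well above background with CpG. The arrays with IFN-γ + αIL-10R and Triple had 80 and 95 such genes well above background, numbers close to that with CpG. The same rule turned on those arrays chose 10 and 23 such receptors. Carbohydrate sulfotransferases supplied 4 members (Chst4, Chst7, Chst11 and Chst13) of 9 well above background, of which Chst7 and Chst11 were in the bright class. C-type lectins of the Cd209, Cd207 and Clec4 genes supplied 3 of 12. Class I-like MHC genes of the M and T regions supplied 3 of 10 (H2-M10.4, H2-M5 and H2-T3), all dim. Potassium channels and their partners supplied 3 of 24, collagens 2 of 17, keratins and their associated proteins 2 of 28, and crystallins 2 of 7, all dim.

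The detection of further probes and the place on the array differed between the classes. For 42 of the 128 dim members the array carried 53 further probes, of which 49 were not well above background with CpG. In the bright class 2 of 15 further probes were not. The classes differ in brightness, and no such share was counted over all genes. None of the other 4 in the dim class was more than 2-fold higher with CpG than in both other arrays. This count cannot be set against the 1.99% of such probes over all genes. Those of 4930451C15Rik, Pde11a and Tuba3a had CpG signals less than 2-fold above the detection limit with IFN-γ + αIL-10R (25.8). They could not pass whatever their signals on the other arrays, and only that of Clca1 could. That of Clca1 was bright on every array, with 60228 with CpG, 59212 in Triple and 56425 with IFN-γ + αIL-10R. That of 4930451C15Rik was also well above background on all 3 arrays, that of Pde11a with CpG and in Triple, and that of Tuba3a with CpG only. By position, 43 of the 128 spots (33.6%) lay in the first 48 of the 384 rows of the array, where 13.6% of all genes well above background with CpG lay. For the bright class it was 6 of 34 (17.6%). The coefficient of variation over the pixels of the CpG spot had a median of 0.274 in the dim class and 0.166 in the bright class. It was 0.154 over all genes well above background with CpG. These sets differ in brightness, with median CpG signals of 61.1, 1979.9 and 1442, and they were not compared at equal brightness. Of the dim members, 10 had a spot next to that of another member in row and column, diagonals included. Among them were Mos beside Chst13 and Catsper3 beside Rims2. No such count was made for other genes, so that it cannot be read as a result about the members.

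**Figure D4:**
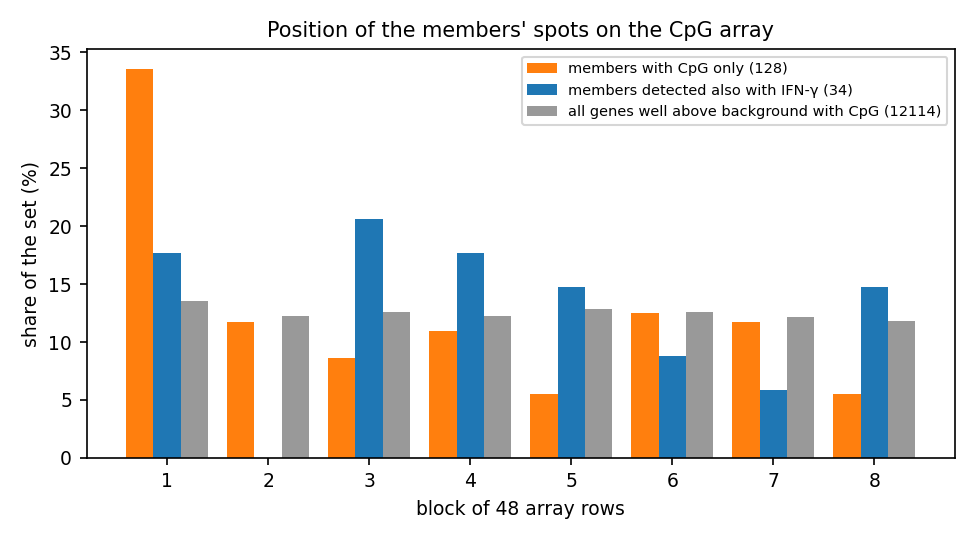
Share of each set (y axis, %) whose spots lie in each of the 8 blocks of 48 array rows (x axis), for the 128 members well above background with CpG only (orange), the 34 detected also with IFN-γ (blue), and all 12114 genes well above background with CpG (grey). The orange bar of block 1 stands at 33.6%, against 13.6% for all genes.

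Probes printed in 10 spots gave a view of single bright spots within an array. Among 1610 spots of 161 such probes that as a whole were not well above background on the CpG array, 10 (0.621%) were well above background and at least 4-fold over the median of their own probe, and 9 of these had an outlier mark. Among 7593 genes not well above background in both arrays with IFN-γ, the 128 dim members made up 1.69%. All of these were single spots, for which no replicate spots are there to be compared. What part of the dim class is spot noise was not tested.

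The same rule was turned on the other arrays. With IFN-γ + αIL-10R as the high array, 108 genes (0.905% of those well above background there) were at least 4-fold over both others, and 72 of them were well above background on that array only. With Triple as the high array there were 245 genes (2.07%), of which 137 were on that array only. In those classes 40.3% and 32.1% of the spots lay in the first 48 rows, close to the 33.6% of the CpG class. Genes detected on the high array only thus made up 79.0% (CpG), 66.7% (IFN-γ + αIL-10R) and 55.9% (Triple) of the genes chosen by the rule.

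**Figure D5:**
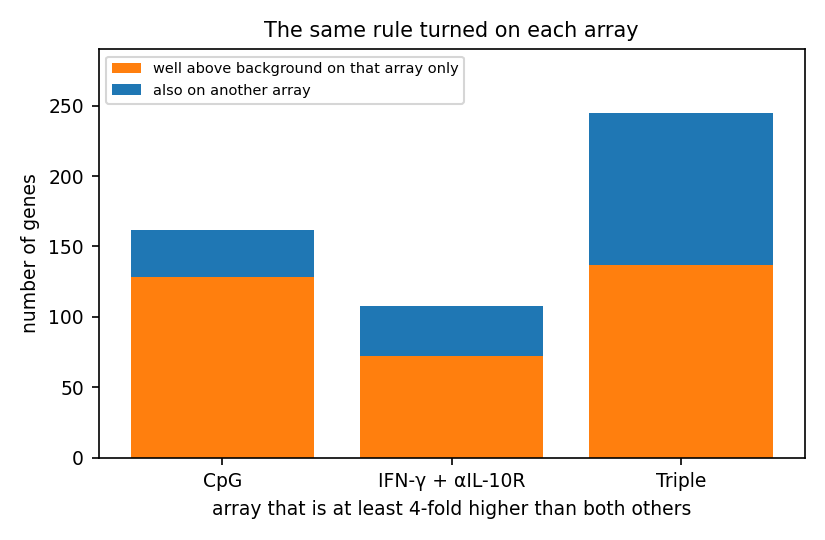
Number of genes (y axis) at least 4-fold higher on the named array than on both others, with orange for those well above background on that array only and blue for those detected also on another. The CpG bar holds 162 genes, 34 of them blue, the IFN-γ + αIL-10R bar 108, and the Triple bar 245.

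Across 8 gene lists of the pathways involved, 4 of 155 genes well above background with CpG were members (2.58%), against 1.34% over all genes. These 4 are too few to set the shares apart. CpG was more than 2-fold higher than both other arrays for 2.47% of all genes well above background on an array, and more than 2-fold lower for 2.81%. None of 25 genes of the TLR9 receptor and its early signaling was higher by this measure, and none was lower. Of 28 genes of the IL-10 and STAT3 response none was higher and 1, Stat3, was lower. Of 26 genes of the IFN-γ response none was higher and 22 were lower, led by Cxcl9, a chemokine for T cells, with 38.6 with CpG, 230854.6 in Triple and 14431 with IFN-γ + αIL-10R. No member was among the 76 genes of these 3 lists that were well above background with CpG, a number too small to set apart from 1.34%.

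Members were found on the lists of scavenging and lipid handling, matrix and proteases, and chemokines. In scavenging and lipid handling, 6 of 26 genes were higher with CpG and 2 were lower. The 6 included the members Alox5 and Vldlr, a lipoprotein receptor with 71.1 with CpG, 9.73 in Triple and 6.26 with IFN-γ + αIL-10R. Fabp4, a fatty acid carrier, was no member but had 4048 with CpG, 1029 in Triple and 775 with IFN-γ + αIL-10R. Among matrix genes and proteases, 5 of 21 were higher (Mmp9, Mmp12, Mmp27, Timp2 and Spp1) and 2 were lower, with Mmp12 the only member. Of 21 chemokines, 1 was higher and 4 were lower. The chemokine Ppbp was a member on 35.0 with CpG against 6.73 in Triple and 6.61 with IFN-γ + αIL-10R, and its bound over IFN-γ + αIL-10R was under 2-fold. In alternative activation 2 of 17 were higher (Stab1 and Igf1) and 3 were lower, with no member. Of 18 cytokines of TLR responses none was higher and 3 were lower.

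Igf1, a growth factor of macrophages, shows how the choice of probe bears on membership. Its brightest probe had 27249 with CpG, 4172 in Triple and 7390 with IFN-γ + αIL-10R, and at 1.90 over IFN-γ + αIL-10R in the authors' table it just missed the rule. A dimmer probe, at 4526 with CpG, met it. There were 32 such genes, also among them Col18a1, Fgfr1 and Ednrb, which were named after their values were seen. Just inside the threshold lay Ascl2, Sorbs3 and Cd5l, whose smaller log2 differences in the authors' table were 2.002, 2.012 and 2.040. Just outside lay Prokr1, Slit2 and Ptrf, at 1.996, 1.996 and 1.991.

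Promoters of the members were read for short motifs. A promoter, taken as the 250 bases before the first start in RefSeq's list for the gene (GRCm38.p6), which need not be the most upstream one, was found for 133 of the 162 members and for 26 of the 34 bright ones. Matches were sought on both strands to TTCNNNGAA (STAT), GAAANNGAA (the core of the interferon-stimulated response element), GGNNNTTCC (NF-κB) and TGANTCA (AP-1). The first held in 7.52% of member promoters and 7.18% of all 27025, the next in 5.26% and 7.16%, GGNNNTTCC in 10.5% and 15.6%, and TGANTCA in 7.52% and 6.87%. For the interferon and NF-κB motifs the share was lower among the members than among all promoters, and for the STAT and AP-1 motifs it was slightly higher. In the order above, the member shares rest on 10, 7, 14 and 10 promoters. Of the 133 promoters, 107 belong to the dim class. Among the 26 bright ones the counts were 1, 1, 3 and 1. Whether any share differs from that of all promoters was not tested. A match is a string of letters, not a known site.

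Of the 26 bright promoters so defined, 6 held any match. The share of all promoters with any match was not counted, so that the 6 cannot be read as a trait of the members. Motif by motif, the bright share was lower than that of all promoters. It was 3.85% against 7.18% (STAT), 3.85% against 7.16% (interferon), 11.5% against 15.6% (NF-κB) and 3.85% against 6.87% (AP-1). These bright shares rest on 1, 1, 3 and 1 promoters, and no difference was tested. The window of Tmem176b's first start ends short of the match in the stretch between the pair, which is therefore counted for Tmem176a alone. Besides that one, printed above, the matches are given here because these genes were measured with and without IFN-γ. Capitals mark the match. It is a STAT motif in 1190003J15Rik, an NF-κB motif in 1700026L06Rik and Il2ra, the interferon-stimulated response element core in Clec4b1, and an AP-1 motif in Htr2b:

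1190003J15Rik, chr7:140834888-140835137, + strand: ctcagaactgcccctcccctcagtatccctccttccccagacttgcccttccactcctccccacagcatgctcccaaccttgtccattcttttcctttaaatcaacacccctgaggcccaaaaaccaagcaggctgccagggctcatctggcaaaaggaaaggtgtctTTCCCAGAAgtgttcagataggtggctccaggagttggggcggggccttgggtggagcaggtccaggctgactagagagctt
1700026L06Rik, chr2:28699652-28699901, − strand: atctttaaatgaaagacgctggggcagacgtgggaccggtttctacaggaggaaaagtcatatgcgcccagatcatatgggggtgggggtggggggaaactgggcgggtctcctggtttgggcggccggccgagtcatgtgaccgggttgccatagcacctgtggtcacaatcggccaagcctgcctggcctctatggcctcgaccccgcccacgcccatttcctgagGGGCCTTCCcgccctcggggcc
Clec4b1, chr6:123049712-123049961, + strand: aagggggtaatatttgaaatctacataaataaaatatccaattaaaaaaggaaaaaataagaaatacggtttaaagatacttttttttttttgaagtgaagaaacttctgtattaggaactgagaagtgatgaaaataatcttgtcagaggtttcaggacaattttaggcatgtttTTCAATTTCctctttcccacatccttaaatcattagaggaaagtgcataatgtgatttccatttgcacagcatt
Htr2b, chr1:86111981-86112230, − strand: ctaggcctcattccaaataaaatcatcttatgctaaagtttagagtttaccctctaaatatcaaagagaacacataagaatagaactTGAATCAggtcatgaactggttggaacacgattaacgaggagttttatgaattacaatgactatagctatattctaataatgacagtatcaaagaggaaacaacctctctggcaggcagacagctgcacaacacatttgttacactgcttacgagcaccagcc
Il2ra, chr2:11642542-11642791, + strand: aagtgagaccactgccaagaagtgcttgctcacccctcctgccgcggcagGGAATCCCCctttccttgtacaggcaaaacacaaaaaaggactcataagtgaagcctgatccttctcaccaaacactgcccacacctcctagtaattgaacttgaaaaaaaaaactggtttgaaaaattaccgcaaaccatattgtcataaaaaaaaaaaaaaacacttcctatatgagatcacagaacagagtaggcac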

How the data were processed

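RNA of BMDMs from 3 conditions was hybridized to 1 Agilent array each. The authors deposited scanner output (Agilent Feature Extraction 10.10.1.1) with a processed signal, which is an intensity after background subtraction, and a table of log2 values. A column of the deposited log2 table equals the scanner's log2 signal less a fixed number per array (within 0.01 for 55598 to 55612 of 55681 probes), and it was used for the rule that chose the members. For all other values, spots marked as non-uniform or population outliers were removed, replicate spots were averaged, and each array's log2 signals were centred on their 75th percentile, taken from the 22393 probes that all arrays measured well above background. A probe was well above background if at least 50% of its spots were. Signals that were not, and lay under the lowest that were, were raised to that lowest signal. Of the 59305 spots, 44.4% to 46.0% were well above background and none was saturated. With 1 array per condition no test was made, and the number of arrays limits the precision.

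The members, gene lists and motifs were chosen with earlier results of these data known. Genes were named if they were among the 25 members with the largest smaller difference, the 10 brightest, on a list, next to the threshold, or past 2-fold between Triple and IFN-γ + αIL-10R. The other bright members were named too, and so were genes given as chosen after their values were seen. Some genes that the rule would name are not reported here. Accessions of 161 members were found in a RefSeq table (GRCm38.p6), and 13 have a newer symbol. Alternatives were other thresholds, scalings, background correction (normexp, offset 50, limma 3.58.1, R 4.3.3), filters and probe rules. The script that applies the rule for members was tested on simulated data in which every gene was well above background on all 3 arrays. There it found the genes set past the threshold and no others. This does not cover dim single spots. Python 3.11.15, pandas 2.3.3, numpy 2.4.6, scipy 1.17.1 and matplotlib 3.10.9 were used.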

Additional observations from a re-analysis of the deposited data

How the results depend on the processing

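The number of members depended on how dim signals were treated. It was 406 at 2-fold, 56 at 8-fold, 67 on scaled scanner signals with dim signals raised to the detection limit, 23 after normexp, 24 with only probes well above background on all 3 arrays, and 285 with accessions of any kind. Chosen after the data were seen, a CpG signal of at least 100 left 70 members, leaving out the first 48 array rows left 114, and counting a gene on any of its probes gave 194. It was between 133 and 173 under the other alternatives. The median log2 difference over the 162 members was 2.22 for CpG minus Triple and 1.54 for CpG minus IFN-γ + αIL-10R. These medians became 2.90 and 3.06 with the authors' table, 0.87 and 0.95 with normexp, 2.96 and 3.01 with no lower limit, and 2.96 and 3.11 over the 24 genes well above background everywhere. The median for Triple minus IFN-γ + αIL-10R, -0.78, was set by the detection limits. It became 0.15 with the authors' table, -0.92 with spike-in scaling, 0.034 with normexp, 0.048 with no lower limit, and -0.10 over the 24 genes. Of the other probes of all members, 58.8% were past 2-fold in both comparisons, and 41.2% to 64.7% under the alternatives. For the bright class, the count higher in Triple was 7 to 10 and the count lower was 2 to 6. Normexp, with 7 and 2, gave the lowest counts. Of 144 differences of the 56 named members, 122 moved by more than the spot noise with normexp, as did 301 of 1295 values over all the alternatives. None of the 144 turned its direction where it was past 2-fold. Of these, 110 compare CpG with another array. They had been chosen as at least 4-fold in the authors' table and so could hardly turn. No paired analysis was possible because the conditions had only 1 array apiece.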
